A study of Homo sapiens with 8 samples.

Results

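The proteasome genes were taken as every gene of the deposited expression table whose symbol is PSM, a letter from A to G and a number, which gave 47 of 26830 genes. Poly(A) RNA had been sequenced from NOMO-1 and from MOLM-13, both established human lines of acute myeloid leukaemia. The 8 libraries form 4 groups of 2: NOMO-1 cells with the hairpin shALKBH5-#1, NOMO-1 cells with the control hairpin shNS, MOLM-13 cells with shALKBH5-#1 and MOLM-13 cells with shNS. ALKBH5 is an enzyme that removes the m6A methyl mark from RNA, and the comparison within each line asked how lowering it altered the transcriptome. All 8 libraries came from cells carrying a lentiviral hairpin and selected with puromycin, so every control also carries a virus, and a single hairpin against ALKBH5 was used. The submitters' texts differ on how long selection lasted, and the sample protocols also name a virus against FTO and small molecules that no sample label lists. Values are TPM, a share of each library's transcripts that is scaled for transcript length. The depth of the libraries is unknown because TPM keeps no read counts. No label says whether libraries of 1 group are separate cultures, so p-values cover the spread between libraries alone, and that spread may be technical. In bulk RNA, fewer cells of a type and less RNA per cell cannot be told apart.

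The proteasome degrades proteins that carry ubiquitin chains. Its 20S core is a barrel of outer alpha rings and inner beta rings, and the beta rings hold the proteolytic sites. The 19S cap, made of a ring of ATPases and a set of non-ATPase subunits, binds ubiquitin chains, removes them and unfolds the substrate into the core. In blood cells and after interferon, the inducible subunits PSMB8, PSMB9 and PSMB10 take the places of the constitutive PSMB5, PSMB6 and PSMB7 and form the immunoproteasome, which supplies peptides for antigen presentation. PSME1 and PSME2 form an alternative cap that is also induced by interferon, PSME3 and PSME4 encode nuclear activators, and PSMG and some PSMD genes encode chaperones that help assemble the core and the cap.

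ALKBH5 was lower in all 4 knockdown libraries. It had 15.1 and 14.2 TPM in NOMO-1 shALKBH5 cells against 70.4 and 71.8 TPM in shNS cells, and 9.45 and 7.35 TPM in MOLM-13 shALKBH5 cells against 45.7 and 45.8 TPM in shNS cells. The myeloid markers CD33, SPI1, CEBPA and LYZ were at 65.3 TPM or more in every library, while MPO was at most 0.48 TPM in NOMO-1 and had 19.3 and 16.4 TPM in MOLM-13 shALKBH5 cells against 384 and 457 TPM in shNS cells. CSF1R, a receptor of the same list, had 7.99 and 6.78 TPM in NOMO-1 shALKBH5 cells against 3.12 and 3.11 TPM in shNS cells, and 83.0 and 42.1 TPM in MOLM-13 shALKBH5 cells against 32.4 and 34.4 TPM in shNS cells. Of the 6 myeloid markers, 2 were called higher (LYZ, 1.66, and CSF1R, 1.02) and 2 lower (CD33, -0.29, and CEBPA, -0.32) in NOMO-1 by limma. In MOLM-13, 2 were higher (LYZ, 0.80, and CD33, 0.46) and 1 lower (MPO, -4.48), with 5 higher and 1 lower by the scaling described below. From TPM, 28.6% of all genes were called higher and 15% lower in NOMO-1, and 10.6% and 31.2% in MOLM-13. The part of the myeloid markers in the proteasome values was not tested. HBA1, MS4A1, EPCAM and KRT19 were listed at 0 throughout, the T cell markers stayed at or below 0.53 TPM, and HBB was listed at 0 except for 14.0 TPM in MOLM-13 shALKBH5 replicate 3. The MOLM-13 shALKBH5 libraries stood apart from each other. The SD of the log2 difference between libraries of a group, over genes averaging at least 10 TPM in the group, was 0.598 there, against 0.177 in NOMO-1 shALKBH5, 0.119 in NOMO-1 shNS and 0.162 in MOLM-13 shNS. The median log2 difference of the proteasome genes in that group, replicate 3 minus replicate 1, was -0.516. A factor for library composition, the median of ratios to a mean library, ranged from 0.644 to 1.33. Scaling by it moved the median log2 fold change of all genes by -0.15 in NOMO-1, by 0.23 in MOLM-13, by -0.44 for the difference between the lines and by -0.26 for the controls, and calls under this scaling, named median-of-ratios scaling, are given beside those from TPM for counts over sets of genes and where a named call differs.

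Of the 47 genes, 45 passed the filter of at least 1 TPM in at least 2 libraries, and none of the 45 fell below 13.9 TPM in any library. PSMA8, the testis alpha subunit, and PSMB11, the thymus beta subunit, were listed at 0 in all 8 libraries and were not tested. PSMB9 is not analysed here. Together the 47 genes made up 0.850% and 0.888% of all TPM in NOMO-1 shALKBH5 cells against 0.815% and 0.827% in shNS cells. In MOLM-13 they made up 0.552% and 0.391% in shALKBH5 cells against 0.564% and 0.569% in shNS cells. The NOMO-1 groups thus did not overlap, with the knockdown higher, and in MOLM-13 both knockdown libraries lay below the controls, replicate 1 by little and replicate 3 by much more.

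In NOMO-1, 9 of the 45 genes were higher after knockdown and 6 lower by limma at an adjusted p under 0.05 (20% and 13.3% of the genes). Over all 14302 genes tested, 28.6% were higher and 15% lower (43.6% in all). From TPM the share of calls among proteasome genes thus did not exceed that of the transcriptome in either direction. Their median log2 fold change was 0.05, against 0.16 over all genes. With median-of-ratios scaling 8 were higher and 18 lower (17.8% and 40%), where 24.6% and 25.1% of all genes were called (49.7% in all). By that scaling the share of lower calls exceeded that of the transcriptome, and 6 higher and 6 lower calls were shared by both scalings. In MOLM-13, 1 gene was higher and 14 were lower (2.22% and 31.1%), beside 10.6% higher and 31.2% lower over all genes (41.8% in all), and the median log2 fold change was -0.41, against -0.18 over all genes. With median-of-ratios scaling 12 were higher and 14 lower (26.7% and 31.1%), where 25.4% and 25.2% of all genes were called (50.6% in all). Shared by both scalings were 1 higher and 13 lower calls. A fit without 1 library has 1 library left in that group, so its p-values and counts do not measure the spread of that group. The count of NOMO-1 genes called higher fell to 1 when any of the 4 NOMO-1 libraries was left out and was 18 without either MOLM-13 shALKBH5 library. The count of MOLM-13 genes called lower was 35 without shALKBH5 replicate 1, 20 without shALKBH5 replicate 3, 6 without shNS replicate 1 and 8 without shNS replicate 3.

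**Figure D1:**
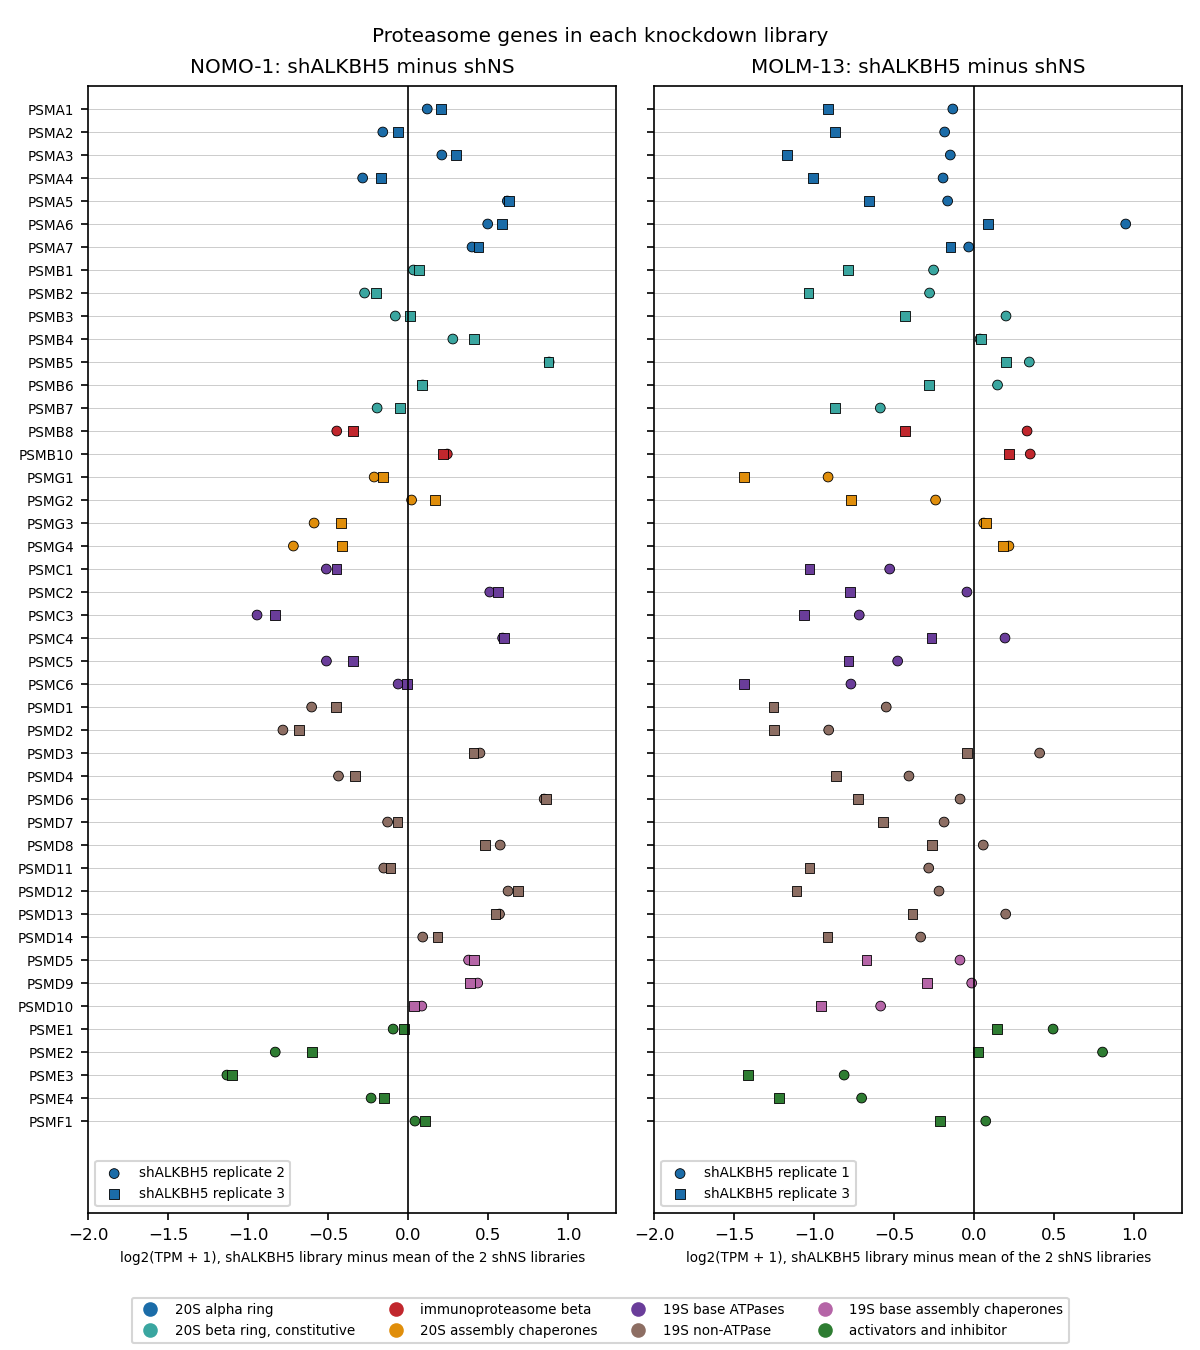
Each point is the log2(TPM + 1) value of 1 proteasome gene in 1 knockdown library minus the mean of the 2 control libraries of that line, for the 45 genes tested, coloured by role. The replicates nearly coincide in NOMO-1, whereas in MOLM-13 replicate 3 (squares) lies to the left of replicate 1 for most genes, with a median of -0.77 against -0.15.

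Libraries of the knockdown and control groups did not overlap for 22 higher and 20 lower of the 45 genes in NOMO-1 (48.9% and 44.4%). Of all genes tested, 52.1% and 30.5% did not overlap there. In MOLM-13 the counts were 8 higher and 27 lower (17.8% and 60%), beside 21.3% and 46.2% of all genes. The lower shares were thus above those of all genes in both lines. Relative to the controls the genes had median log2 differences of 0.02 and 0.04 in NOMO-1 shALKBH5 replicates 2 and 3, and of -0.15 and -0.77 in MOLM-13 shALKBH5 replicates 1 and 3. The medians over all genes were 0.14, 0.17, -0.06 and -0.33 in the same libraries. Called in both lines and in the same direction were 4 genes, all lower: PSME3, PSMC3, PSMD2 and PSMC5. Over all genes tested 10.4% were lower in both lines and 6.33% higher in both. No proteasome gene was called higher in both and 19 were called in neither. With median-of-ratios scaling 10 were lower in both, 5 higher in both and 3 lower in NOMO-1 but higher in MOLM-13, where 14.1%, 11.5% and 2.3% of all genes were called.

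PSME3, a nuclear activator of the core, had 58.6 and 59.9 TPM in NOMO-1 shALKBH5 cells against 131 and 129 TPM in shNS cells, and 61.9 and 40.5 TPM in MOLM-13 shALKBH5 cells against 109 and 110 TPM in shNS cells. Every knockdown library was below every control library of its line, by 2.19 times in NOMO-1 and 2.14 times in MOLM-13 by group means. The log2 fold change was -1.12 in NOMO-1 (limma adjusted p = 0.0045, SE 0.19) and -1.11 in MOLM-13 (adjusted p = 0.0053, SE 0.19). Both calls held in all 15 alternatives, leaving out any library included. The gene lies at chromosome 17, 42824385 to 42843758, on the plus strand (GENCODE release 29, GRCh38), where its model overlaps BECN1 on the opposite strand. The kit is described as stranded but the strand setting of the counting is not given, and BECN1 had 99.9 and 99.6 TPM in NOMO-1 shALKBH5 cells against 63.7 and 62.1 TPM in shNS cells, and 80.3 and 59.9 TPM in MOLM-13 shALKBH5 cells against 64.7 and 62.6 TPM in shNS cells. It was above the controls in NOMO-1 and on both sides of them in MOLM-13.

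PSMC3, an ATPase of the cap's base, had 38.5 and 41.8 TPM in NOMO-1 shALKBH5 cells against 74.6 and 75.7 TPM in shNS cells. In MOLM-13 it had 69.0 and 54.1 TPM in shALKBH5 cells against 117 and 112 TPM in shNS cells. The groups were separate in both lines, and the knockdown was lower by 1.87 and 1.86 times. The log2 fold change was -0.89 in each line (SE 0.13), with a limma adjusted p of 0.0028 in NOMO-1 and 0.0032 in MOLM-13. PSMD2, a scaffold of the cap that binds ubiquitin shuttle factors, had 175 and 187 TPM in NOMO-1 shALKBH5 cells against 303 and 300 TPM in shNS cells. Its MOLM-13 values were 57.7 and 45.4 TPM in shALKBH5 cells against 108 and 110 TPM in shNS cells. Here too no library overlapped, with log2 fold changes of -0.73 (SE 0.13, limma adjusted p = 0.005) and -1.08 (SE 0.13, adjusted p = 0.0015). The PSMC3 and PSMD2 calls held in all 15 alternatives in each line.

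PSMC5, another base ATPase, had 127 and 143 TPM in NOMO-1 shALKBH5 cells against 180 and 182 TPM in shNS cells, and 119 and 96.1 TPM in MOLM-13 shALKBH5 cells against 166 and 167 TPM in shNS cells. The groups did not overlap, and the log2 fold change was -0.43 in NOMO-1 (SE 0.13, limma adjusted p = 0.034) and -0.63 in MOLM-13 (SE 0.13, adjusted p = 0.0095). The NOMO-1 call ended without any of the 4 NOMO-1 libraries or either MOLM-13 shNS library (adjusted p 0.0727 to 0.183), and the MOLM-13 call without either MOLM-13 shNS library (0.0635 and 0.0636) and with MOLM-13 fitted alone (0.0662). PSMC5 overlaps FTSJ3 on the opposite strand, which makes its level uncertain.

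RefSeq promoter windows (GRCh38.p14) matched 41 of the genes, and these windows from 250 bases before to 50 after them were searched on both strands for short motifs. The 140 bases from 120 before the start to 20 after it are shown for the genes that were lower in both lines, with the CCAAT box, the letters CCAAT, in capitals in either orientation.
PSME3 (chr17:42833277-42833416, plus strand): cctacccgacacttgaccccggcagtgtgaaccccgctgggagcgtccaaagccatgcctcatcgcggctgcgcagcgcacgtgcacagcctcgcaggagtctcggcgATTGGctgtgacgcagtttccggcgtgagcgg
PSMC3 (chr11:47426420-47426559, minus strand): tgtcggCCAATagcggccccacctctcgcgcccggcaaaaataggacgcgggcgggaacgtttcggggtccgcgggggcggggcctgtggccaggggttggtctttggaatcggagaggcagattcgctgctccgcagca
PSMD2 (chr3:184299121-184299260, plus strand): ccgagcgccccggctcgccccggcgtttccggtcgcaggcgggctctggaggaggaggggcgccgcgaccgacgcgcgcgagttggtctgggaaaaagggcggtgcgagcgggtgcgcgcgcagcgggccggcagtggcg
PSMC5 (chr17:63827311-63827450, plus strand): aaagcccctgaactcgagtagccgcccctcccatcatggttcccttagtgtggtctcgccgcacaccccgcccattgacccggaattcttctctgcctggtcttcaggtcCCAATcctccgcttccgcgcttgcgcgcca

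With the start base counted as 0, the box begins at -12 in PSME3, -114 in PSMC3 and -10 in PSMC5, and the printed PSMD2 window holds none. CCAAT was found in the windows of 19 of 41 proteasome genes (46.3%), against 39.7% of 27305 genes. Those 27305 are all genes with a promoter window, tested here or not. Shares among the tested genes alone were not taken. The ETS core CCGGAAG was found in 15 (36.6% against 12.2%), the core of the antioxidant response element TGACNNNGC in 14 (34.1% against 16.1%) and the GAS element TTCNNNGAA in 8 (19.5% against 9.38%), with no overlap between matches of different motifs. Among the 4 genes lower in both lines CCAAT was in 3, TTCNNNGAA in 2 and TGACNNNGC in 1. A match is a description of letters and not of a bound site.

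Of the immunoproteasome genes, 0 of 2 were called in NOMO-1 and 1 of 2, PSMB10, higher in MOLM-13, and with median-of-ratios scaling PSMB8 was also called lower in NOMO-1. Over all genes 43.6% were called in NOMO-1 and 41.8% in MOLM-13 from TPM, and 49.7% and 50.6% by that scaling. PSMB8, the inducible counterpart of PSMB5, had 93.7 and 101 TPM in NOMO-1 shALKBH5 cells against 126 and 130 TPM in shNS cells, and 113 and 66.0 TPM in MOLM-13 shALKBH5 cells against 88.1 and 90.8 TPM in shNS cells. In NOMO-1 both knockdown libraries were below both controls, and in MOLM-13 1 lay above and 1 below them. The log2 fold change was -0.40 in NOMO-1 (SE 0.23, limma adjusted p = 0.21) and -0.05 in MOLM-13 (SE 0.23, adjusted p = 0.89). The NOMO-1 value passed in 5 of 15 alternatives. Of these, median-of-ratios scaling gave -0.59 (adjusted p = 0.0076). In MOLM-13 the log2 fold change of PSMB8 was 0.33 without shALKBH5 replicate 3 and -0.43 without replicate 1, each resting on 1 knockdown library. PSMB8 overlaps PSMB8-AS1 on the opposite strand at chromosome 6, 32840717 to 32844703, and that transcript had 39.4 and 44.1 TPM in NOMO-1 shALKBH5 cells against 30.3 and 30.8 TPM in shNS cells.

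PSMB5, the constitutive chymotrypsin-like subunit that PSMB8 replaces, was the proteasome gene with the largest rise in NOMO-1. It had 190.1 and 189.6 TPM in shALKBH5 cells against 100.0 and 106 TPM in shNS cells, and 123 and 112 TPM in MOLM-13 shALKBH5 cells against 92.3 and 102 TPM in shNS cells. Knockdown libraries were above the controls in each line, by 1.85 times in NOMO-1. In NOMO-1 its log2 fold change was 0.88 (limma adjusted p = 0.0011, SE 0.098), called in all 15 alternatives, and in MOLM-13 it was 0.27 (adjusted p = 0.068, SE 0.098), called in 3. By median-of-ratios scaling PSMB5 passed in both lines, at 0.68 in NOMO-1 (adjusted p = 0.0018) and 0.60 in MOLM-13 (adjusted p = 0.0033). The ratio of PSMB8 to PSMB5 TPM was 0.493 and 0.531 in NOMO-1 shALKBH5 cells against 1.26 and 1.23 in shNS cells, and 0.913 and 0.592 in MOLM-13 shALKBH5 cells against 0.955 and 0.890 in shNS cells. The ratio was thus lower in both NOMO-1 knockdown libraries, while MOLM-13 replicate 1 lay within the range of the controls. The ratios are a description, with no test.

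PSMB10, the inducible counterpart of PSMB7, had 44.1 and 43.2 TPM in NOMO-1 shALKBH5 cells against 36.2 and 38.0 TPM in shNS cells, and 105 and 95.3 TPM in MOLM-13 shALKBH5 cells against 81.2 and 82.5 TPM in shNS cells. From TPM it was higher in every knockdown library of both lines. The log2 fold change was 0.23 in NOMO-1 (limma adjusted p = 0.084, SE 0.09) and 0.28 in MOLM-13 (adjusted p = 0.046, SE 0.09). By median-of-ratios scaling these were 0.04 (adjusted p = 0.77) and 0.61 (adjusted p = 0.0026). The line difference was -0.05 from TPM (adjusted p = 0.76) and -0.57 by that scaling (adjusted p = 0.019). Of these, MOLM-13 alone was called from TPM. The MOLM-13 call ended without any of the 4 NOMO-1 libraries or either MOLM-13 shNS library (adjusted p 0.0889 to 0.205) and with MOLM-13 fitted alone (0.225). PSMB7, the constitutive trypsin-like subunit, had 232 and 256 TPM in NOMO-1 shALKBH5 cells against 267 and 264 TPM in shNS cells, and 122 and 101 TPM in MOLM-13 shALKBH5 cells against 183 and 186 TPM in shNS cells. All knockdown libraries were lower, and PSMB7 was called in MOLM-13 (log2 fold change -0.73, SE 0.12, limma adjusted p = 0.0046), where the call held in all 15 alternatives, and not in NOMO-1 (-0.12, SE 0.12, adjusted p = 0.44) except in 2 alternatives, with -0.32 (adjusted p = 0.0073) by median-of-ratios scaling. The ratio of PSMB10 to PSMB7 TPM was 0.190 and 0.169 in NOMO-1 shALKBH5 cells against 0.136 and 0.144 in shNS cells, and 0.855 and 0.949 in MOLM-13 shALKBH5 cells against 0.444 and 0.444 in shNS cells, higher in every knockdown library.

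PSMB6, the constitutive caspase-like subunit, had 146.5 and 146.3 TPM in NOMO-1 shALKBH5 cells against 136 and 139 TPM in shNS cells, and 101 and 74.9 TPM in MOLM-13 shALKBH5 cells against 92.3 and 90.3 TPM in shNS cells. The NOMO-1 groups did not overlap and the MOLM-13 knockdown libraries lay on either side of the controls. PSMB6 was not called in NOMO-1 (log2 fold change 0.09, SE 0.14, limma adjusted p = 0.66) or in MOLM-13 (-0.07, SE 0.14, adjusted p = 0.75). Its sign changed with median-of-ratios scaling in both, to -0.11 in NOMO-1 and to 0.25 in MOLM-13, where it then passed (adjusted p = 0.0079).

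**Figure D2:**
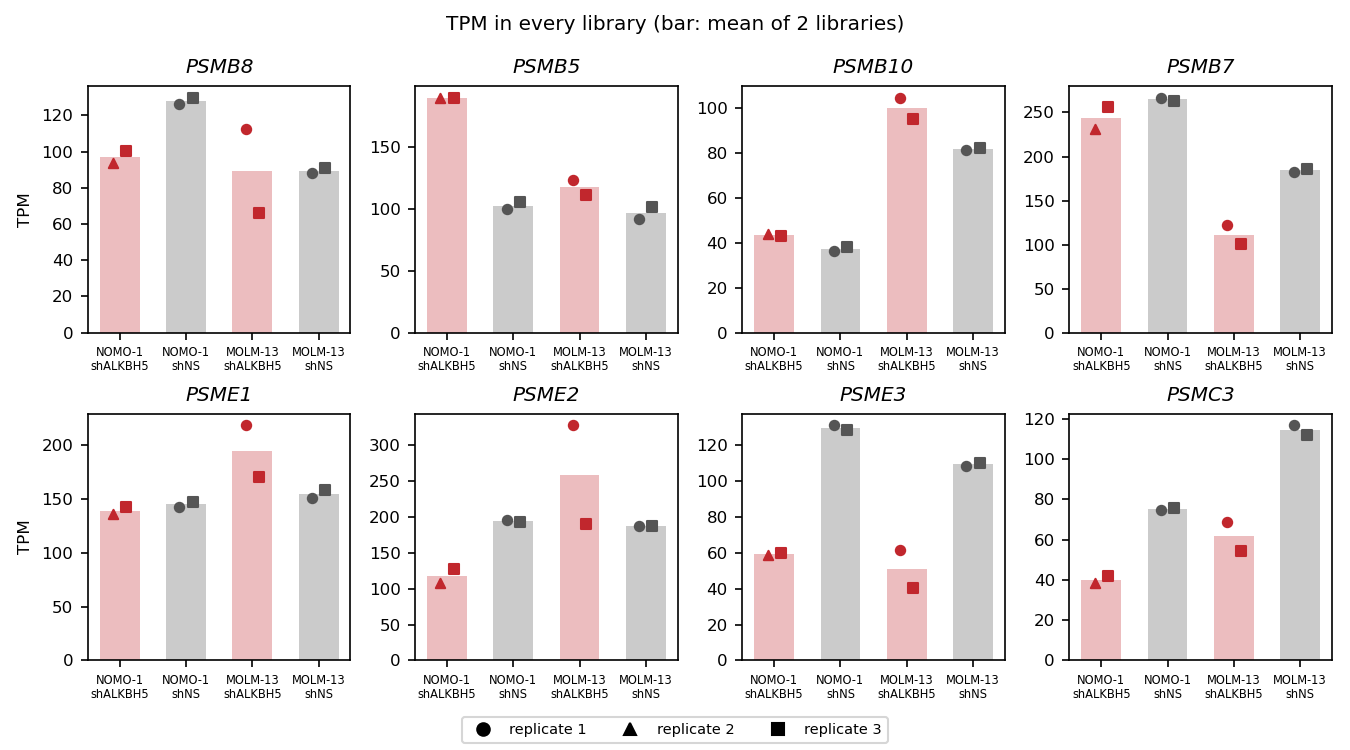
TPM of 8 proteasome genes in every library, with points for replicates and bars for the mean of 2 libraries, knockdown in red and control in grey. PSME3 and PSMC3 are lower in every knockdown library, and PSMB5 is highest in NOMO-1 shALKBH5 cells. In MOLM-13 shALKBH5 cells replicate 3 is below replicate 1 for all 8 genes.

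PSME2, of the interferon-inducible cap, had 108 and 127 TPM in NOMO-1 shALKBH5 cells against 196 and 192 TPM in shNS cells, and 327 and 190.4 TPM in MOLM-13 shALKBH5 cells against 187 and 187 TPM in shNS cells. Both NOMO-1 knockdown libraries were lower, and in MOLM-13 replicate 1 was far above the controls and replicate 3 just above them. The log2 fold change was -0.72 in NOMO-1 (limma adjusted p = 0.053, SE 0.24) and 0.41 in MOLM-13 (adjusted p = 0.22, SE 0.24). The effect in NOMO-1 minus that in MOLM-13 was -1.13 (SE 0.34, limma adjusted p = 0.045). With median-of-ratios scaling PSME2 passed in all 3, at -0.91 in NOMO-1 (adjusted p = 0.002), 0.74 in MOLM-13 (adjusted p = 0.0048) and -1.65 for the difference (adjusted p = 0.0026). The difference from TPM ended without any of the 4 NOMO-1 libraries or either MOLM-13 shNS library (adjusted p 0.0995 to 0.139), with a pseudocount of 0.1 and without the filter (0.0506 and 0.0772). PSME2 overlaps RNF31 on the opposite strand.

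PSME1, the partner of PSME2, had 136 and 142 TPM in NOMO-1 shALKBH5 cells against 142 and 147 TPM in shNS cells, and 218 and 171 TPM in MOLM-13 shALKBH5 cells against 151 and 159 TPM in shNS cells. Both knockdown libraries lay below the controls in NOMO-1, the nearest pair by under 1 TPM, and above them in MOLM-13. The log2 fold change was -0.06 in NOMO-1 (limma adjusted p = 0.75, SE 0.13) and 0.32 in MOLM-13 (adjusted p = 0.095, SE 0.13). Both values passed with median-of-ratios scaling, at -0.25 (adjusted p = 0.009) and 0.64 (adjusted p = 0.00032). The ratio of PSME1 to PSME2 TPM was 1.25 and 1.12 in NOMO-1 shALKBH5 cells against 0.727 and 0.767 in shNS cells, and 0.667 and 0.896 in MOLM-13 shALKBH5 cells against 0.807 and 0.846 in shNS cells. PSME2 thus exceeded its partner in every library but those of NOMO-1 shALKBH5.

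The sum of interferon-stimulated genes was above the controls in all 4 knockdown libraries, far above in replicate 1 of MOLM-13 shALKBH5 cells and just above in replicate 3. The summed TPM of 12 such genes was 299.7 and 319.6 in NOMO-1 shALKBH5 cells against 147 and 162 in shNS cells, and 1152 and 120.4 in MOLM-13 shALKBH5 replicates 1 and 3 against 115 and 108 in shNS cells. The genes did not all move with the sum. In NOMO-1 STAT2 had 134 and 137 TPM in shALKBH5 cells against 33.6 and 33.5 TPM in shNS cells. IFIT2, IFIT3, MX1 and CXCL10 were below the controls in both NOMO-1 knockdown libraries. In MOLM-13 shALKBH5 replicate 3, STAT2, IRF1, TAP1 and ISG15 were above both controls and the other genes of the list were below both. IFIT1 had 70.7 and 0.35 TPM in MOLM-13 shALKBH5 replicates 1 and 3 against 1.96 and 1.43 TPM in shNS cells. TAP1, a peptide transporter, had 74.8 and 28.4 TPM in the same libraries against 19.2 and 18.2 TPM in shNS cells. Of 9 interferon genes tested, 1 was called higher in NOMO-1 (STAT2, log2 fold change 1.98, limma adjusted p = 0.017) and 1 in MOLM-13 (TAP1, 1.26, adjusted p = 0.046), none lower. With median-of-ratios scaling 1 was higher in NOMO-1 and 3 in MOLM-13 (STAT2, adjusted p = 0.022, IRF1, 0.0051, and TAP1, 0.0058). Over all genes 28.6% were higher in NOMO-1 and 10.6% in MOLM-13 from TPM, and 24.6% and 25.4% by that scaling. The STAT2 call in NOMO-1 ended without any NOMO-1 library (adjusted p 0.0814 to 0.0854), and the TAP1 call without any of these or either MOLM-13 shNS library (0.0806 to 0.162). In both NOMO-1 knockdown libraries STAT2, TAP1 (50.4 and 57.6 TPM against 38.2 and 42.5 TPM in shNS cells) and PSMB10 were above the controls. PSMB8, PSME1 and PSME2 were below them. The part of the interferon genes in the values of PSMB8, PSMB10, PSME1, PSME2 and PSMA6 was not tested.

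The promoters of the inducible genes are shown beside PSMB5 because each holds a match to the interferon-stimulated response element, GAAA followed by any 2 bases and GAAA. The match is in capitals in either orientation, within the same 140 bases.
PSMB8 (chr6:32844028-32844167, minus strand): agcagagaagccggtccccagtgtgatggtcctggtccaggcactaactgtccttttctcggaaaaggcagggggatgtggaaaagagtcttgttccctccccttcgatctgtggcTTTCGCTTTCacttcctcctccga
PSMB10 (chr16:67936831-67936970, minus strand): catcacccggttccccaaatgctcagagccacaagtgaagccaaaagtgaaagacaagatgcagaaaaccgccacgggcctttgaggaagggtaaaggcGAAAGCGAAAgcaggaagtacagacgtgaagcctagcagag
PSME1 (chr14:24136074-24136213, plus strand): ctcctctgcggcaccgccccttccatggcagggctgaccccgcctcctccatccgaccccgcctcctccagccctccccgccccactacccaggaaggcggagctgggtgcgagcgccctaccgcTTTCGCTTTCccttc
PSME2 (chr14:24146591-24146730, minus strand): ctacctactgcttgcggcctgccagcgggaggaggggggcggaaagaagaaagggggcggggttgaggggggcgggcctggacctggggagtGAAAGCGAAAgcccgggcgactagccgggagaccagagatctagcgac
PSMB5 (chr14:23035201-23035340, minus strand): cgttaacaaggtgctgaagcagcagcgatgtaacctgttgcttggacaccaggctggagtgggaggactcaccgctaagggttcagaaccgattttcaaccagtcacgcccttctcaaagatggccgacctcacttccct

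The element begins at -4 in PSMB8, -21 in PSMB10, 5 in PSME1 and -28 in PSME2, and the printed PSMB5 window has none. For PSMB8 the second listed start was used because its printed bases hold the match. The GAS element TTCNNNGAA was in the PSMB8 window (-65) and in the other PSMB5 window (-158 and -15). It was not in those of PSMB10, PSME1 and PSME2. The interferon-stimulated response element was in the windows of 7 of 41 proteasome genes (17.1%), against 4.38% of all 27305 genes with a window, tested here or not. The other 3 were PSMB4, PSMG4 and PSMA4. By library, PSMB10 was above its controls in every knockdown library, PSMB8 was below them in NOMO-1 and on both sides in MOLM-13, and PSME1 and PSME2 were below them in NOMO-1 and above them in MOLM-13.

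PSME4, another nuclear activator, had 61.5 and 65.1 TPM in NOMO-1 shALKBH5 cells against 73.2 and 71.7 TPM in shNS cells, and 22.1 and 15.2 TPM in MOLM-13 shALKBH5 cells against 36.2 and 37.1 TPM in shNS cells. Both lines had lower values in every knockdown library. MOLM-13 passed (log2 fold change -0.96, SE 0.17, limma adjusted p = 0.0062, called in all 15 alternatives), and NOMO-1 did not (-0.19, SE 0.17, adjusted p = 0.40), although it passed by median-of-ratios scaling (-0.38, adjusted p = 0.0041). PSMF1, an inhibitor of the core, was not called in either line, with 36.2 and 37.8 TPM in NOMO-1 shALKBH5 cells against 34.3 and 35.9 TPM in shNS cells, and 17.1 and 13.9 TPM in MOLM-13 shALKBH5 cells against 16.1 and 16.4 TPM in shNS cells. Its log2 fold change of 0.07 in NOMO-1 and -0.07 in MOLM-13 (SE 0.12, limma adjusted p = 0.66 and 0.68) had the opposite sign with median-of-ratios scaling.

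The alpha ring, which forms the gate of the core, had 2 of 7 tested genes higher and 0 lower in NOMO-1, and 0 called in MOLM-13. With median-of-ratios scaling 1 was higher and 1 lower (PSMA4) in NOMO-1 and 1 higher (PSMA6) in MOLM-13. The shares over all genes stand beside this count and the counts by role below. From TPM they were 28.6% higher and 15% lower in NOMO-1, and 10.6% and 31.2% in MOLM-13. By median-of-ratios scaling they were 24.6% and 25.1% in NOMO-1, and 25.4% and 25.2% in MOLM-13. PSMA5 had 81.7 and 82.3 TPM in NOMO-1 shALKBH5 cells against 53.2 and 52.6 TPM in shNS cells. The groups were well separated (log2 fold change 0.62, SE 0.16, limma adjusted p = 0.022), but the call ended without any of the 4 NOMO-1 libraries (adjusted p 0.0981 to 0.105). In MOLM-13, PSMA5 had 43.9 and 30.9 TPM in shALKBH5 cells against 49.95 and 48.7 TPM in shNS cells, and was not called (-0.41, adjusted p = 0.084). PSMA7, at 587 and 604 TPM in NOMO-1 shALKBH5 cells against 441 and 449 TPM in shNS cells, was also called (0.42, adjusted p = 0.013), but not with median-of-ratios scaling (adjusted p = 0.122) or without any of the NOMO-1 libraries (0.0677 to 0.0921). PSMA6 had 320 and 340 TPM in NOMO-1 shALKBH5 cells against 220 and 232 TPM in shNS cells, and 415 and 228 TPM in MOLM-13 shALKBH5 cells against 213 and 216 TPM in shNS cells. It was above the controls in all knockdown libraries and called in neither line (0.54, adjusted p = 0.14 in NOMO-1 and 0.52, adjusted p = 0.16 in MOLM-13). It passed in 4 of 15 alternatives in NOMO-1 and in 3 in MOLM-13, with 0.84 (adjusted p = 0.0044) there by median-of-ratios scaling.

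In the constitutive beta ring, 2 of 7 genes were higher and 0 lower in NOMO-1 (PSMB5 and PSMB4), and 0 were higher and 2 lower in MOLM-13 (PSMB7 and PSMB1). With median-of-ratios scaling the counts were 1 higher and 2 lower in NOMO-1 and 2 higher and 1 lower in MOLM-13. PSMB4 had 638 and 700 TPM in NOMO-1 shALKBH5 cells against 517 and 534 TPM in shNS cells (log2 fold change 0.35, limma adjusted p = 0.02), and the call ended with median-of-ratios scaling (0.392) and without any of the NOMO-1 libraries or either MOLM-13 shNS library (0.0513 to 0.133). PSMB1, a structural subunit, had 291 and 200.4 TPM in MOLM-13 shALKBH5 cells against 344 and 350 TPM in shNS cells. Both knockdown libraries were lower, and the call (-0.52, limma adjusted p = 0.049) ended in 9 of 15 alternatives. Among these were median-of-ratios scaling (-0.20, adjusted p = 0.0514), no filter and MOLM-13 fitted alone. The rest left out any of the 4 NOMO-1 libraries or either MOLM-13 shNS library.

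Of the 4 chaperones of the core, PSMG3 and PSMG4 were lower in NOMO-1 and PSMG1 in MOLM-13. With median-of-ratios scaling 3 were lower in NOMO-1, and 1 was higher (PSMG4) and 1 lower in MOLM-13. PSMG4 had 14.6 and 18.2 TPM in NOMO-1 shALKBH5 cells against 26.1 and 23.3 TPM in shNS cells, and 29.5 and 28.8 TPM in MOLM-13 shALKBH5 cells against 27.5 and 23.2 TPM in shNS cells. PSMG3 had 53.8 and 60.7 TPM in NOMO-1 shALKBH5 cells against 76.6 and 86.7 TPM in shNS cells, and 37.4 and 37.8 TPM in MOLM-13 shALKBH5 cells against 35.0 and 36.7 TPM in shNS cells. For both genes every NOMO-1 knockdown library was below its controls and every MOLM-13 knockdown library was above them. The log2 fold changes in NOMO-1 were -0.57 (SE 0.14, limma adjusted p = 0.021) and -0.50 (SE 0.11, adjusted p = 0.011), and the line differences were -0.77 (adjusted p = 0.032) and -0.57 (adjusted p = 0.032). The NOMO-1 calls ended without NOMO-1 shNS replicate 3 or shALKBH5 replicate 2, and for PSMG4 also without shNS replicate 1 (adjusted p 0.0672 to 0.129 for PSMG4, 0.0836 and 0.0917 for PSMG3).

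PSMG1, a chaperone of the alpha ring with PSMG2, had 41.6 and 28.6 TPM in MOLM-13 shALKBH5 cells against 82.9 and 75.9 TPM in shNS cells, and 145 and 151 TPM in NOMO-1 shALKBH5 cells against 171 and 165 TPM in shNS cells. It was the proteasome gene with the largest fold change in MOLM-13, -1.18 on the log2 scale (SE 0.17, limma adjusted p = 0.0032, called in all 15 alternatives), with -0.19 (SE 0.17, adjusted p = 0.43) in NOMO-1, or -0.38 (adjusted p = 0.0064) there by median-of-ratios scaling. Its partner PSMG2 was called in neither line (0.09 in NOMO-1 and -0.50 in MOLM-13).

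Of the 6 base ATPases, 1 was higher and 2 lower in NOMO-1, and 0 were higher and 4 lower in MOLM-13. With median-of-ratios scaling 2 were higher and 3 lower in NOMO-1, and 1 was higher and 4 lower in MOLM-13. PSMC4 had 229 and 230.1 TPM in NOMO-1 shALKBH5 cells against 150 and 153 TPM in shNS cells, with no overlap (log2 fold change 0.59, SE 0.15, limma adjusted p = 0.021), and the call ended without any of the 4 NOMO-1 libraries (0.094 to 0.107). The MOLM-13 value of PSMC4 was -0.04 (adjusted p = 0.88), or 0.28 (adjusted p = 0.0055) by median-of-ratios scaling, with 92.3 and 66.8 TPM in shALKBH5 cells against 80.2 and 81.0 TPM in shNS cells. PSMC6 had 63.8 and 39.8 TPM in MOLM-13 shALKBH5 cells against 110.2 and 109 TPM in shNS cells, and 121 and 126 TPM in NOMO-1 shALKBH5 cells against 124 and 128 TPM in shNS cells. The MOLM-13 libraries were separate (-1.10, SE 0.20, limma adjusted p = 0.0075) and the call ended without MOLM-13 shNS replicate 1 (0.0529); in NOMO-1 the value was -0.03 (adjusted p = 0.92). PSMC1, at 116 and 81.5 TPM in MOLM-13 shALKBH5 cells against 169 and 166 TPM in shNS cells, was also lower there (-0.78, adjusted p = 0.012), and the call ended without either MOLM-13 shNS library (0.0655 and 0.0733) and with MOLM-13 fitted alone (0.0675). In NOMO-1 PSMC1 had 170.1 and 178 TPM in shALKBH5 cells against 235 and 252 TPM in shNS cells, with no overlap (-0.48, adjusted p = 0.056), and passed there by median-of-ratios scaling (-0.68, adjusted p = 0.00041).

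Among the 11 non-ATPase subunits of the cap, 3 were higher and 1 lower in NOMO-1, and 0 were higher and 4 lower in MOLM-13. With median-of-ratios scaling 4 were higher and 4 lower in NOMO-1, and 3 were higher and 5 lower in MOLM-13. PSMD6, of the lid, had 397 and 400 TPM in NOMO-1 shALKBH5 cells against 218 and 221 TPM in shNS cells, and 115 and 73.4 TPM in MOLM-13 shALKBH5 cells against 122 and 122 TPM in shNS cells. Groups were separate in both lines and in opposite directions, but MOLM-13 was not called (log2 fold change -0.41, adjusted p = 0.14), while NOMO-1 was (0.86, SE 0.20, limma adjusted p = 0.014) except without any of the 4 NOMO-1 libraries (0.0728 to 0.0776). PSMD6 overlaps PSMD6-AS2 on the opposite strand, which was at 7.9 TPM or less in every library. PSMD13 and PSMD8, both of the lid, were called higher in NOMO-1 at 0.56 (adjusted p = 0.048) and 0.53 (adjusted p = 0.015), and each call ended without any of the NOMO-1 libraries (0.0885 to 0.177, also without either MOLM-13 shNS library, and 0.0592 to 0.0984).

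In MOLM-13, PSMD1, a scaffold of the base, had 55.1 and 33.4 TPM in shALKBH5 cells against 79.3 and 83.0 TPM in shNS cells (-0.90, limma adjusted p = 0.019). PSMD4, a ubiquitin receptor, had 180 and 131 TPM in shALKBH5 cells against 238 and 241 TPM in shNS cells (-0.63, adjusted p = 0.018). PSMD14, the deubiquitinase of the lid, had 73.7 and 48.9 TPM in shALKBH5 cells against 94.5 and 91.9 TPM in shNS cells (-0.63, adjusted p = 0.035). All 6 knockdown values were below their controls. The PSMD1 and PSMD4 calls ended without either MOLM-13 shNS library (0.0849 and 0.0961, 0.0902 and 0.0947), and that of PSMD14 without these or any NOMO-1 library (0.0665 to 0.15). With MOLM-13 fitted alone the PSMD1 and PSMD4 calls ended too (0.0785 and 0.0886), as did that of PSMD14. In NOMO-1 PSMD1 and PSMD4 were at -0.53 (adjusted p = 0.098) and -0.38 (adjusted p = 0.086), and by median-of-ratios scaling both passed there (-0.72, adjusted p = 0.0024, and -0.58, adjusted p = 0.00041). PSMD14 was at 0.14 in NOMO-1 (adjusted p = 0.59), or -0.06 by that scaling. Of the cap's base chaperones, PSMD10 (gankyrin) was lower in MOLM-13 (22.8 and 17.4 TPM in shALKBH5 cells against 36.0 and 33.5 TPM in shNS cells, -0.77, limma adjusted p = 0.0064), a call that ended without shNS replicate 1 (0.0551) and with MOLM-13 fitted alone (0.0569). PSMD9 was higher in NOMO-1 (27.8 and 26.8 TPM in shALKBH5 cells against 19.9 and 20.7 TPM in shNS cells, 0.41, adjusted p = 0.035), a call that ended with median-of-ratios scaling (0.0529) and without any NOMO-1 library or either MOLM-13 shNS library (0.0695 to 0.168). PSMD5 was called in neither line.

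The difference in knockdown effect between lines, NOMO-1 minus MOLM-13, was called for 15 of 45 genes, 12 higher and 3 lower (26.7% and 6.67%). Of all genes, 34.6% were called, 29.7% higher and 4.9% lower. The median difference was 0.42 in the proteasome genes and 0.42 over all genes. With median-of-ratios scaling 6 were higher and 14 lower (13.3% and 31.1%), where 18.4% and 17.4% of all genes were called (35.9% in all). Shared by both scalings were 6 higher and 3 lower calls. The count was 0 or 1 when any NOMO-1 library or either MOLM-13 shNS library was left out, 41 without MOLM-13 shALKBH5 replicate 1 and 30 without replicate 3. PSMD12, of the lid, had 104 and 109 TPM in NOMO-1 shALKBH5 cells against 67.6 and 66.8 TPM in shNS cells, and 34.3 and 18.0 TPM in MOLM-13 shALKBH5 cells against 40.5 and 39.8 TPM in shNS cells. It was higher in both NOMO-1 knockdown libraries and lower in both MOLM-13 knockdown libraries, and although called in neither line alone (adjusted p = 0.091 and 0.089) it had a difference of 1.32 (SE 0.37, limma adjusted p = 0.038), the largest in size from TPM. PSMD6 (1.26, adjusted p = 0.018), PSME2 (-1.13, 0.045), PSMC6 (1.07, 0.033), PSMA5 (1.04, 0.018) and PSMG1 (0.99, 0.025) followed. With median-of-ratios scaling PSMD12 was at 0.82 and PSME2 at -1.65. For PSME3 and PSMC3 the difference was -0.01 (SE 0.26, adjusted p = 0.99) and 0.00 (SE 0.18, adjusted p = 1.00), whereas median-of-ratios scaling gave -0.51 for each (adjusted p = 0.016 and 0.0059).

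**Figure D3:**
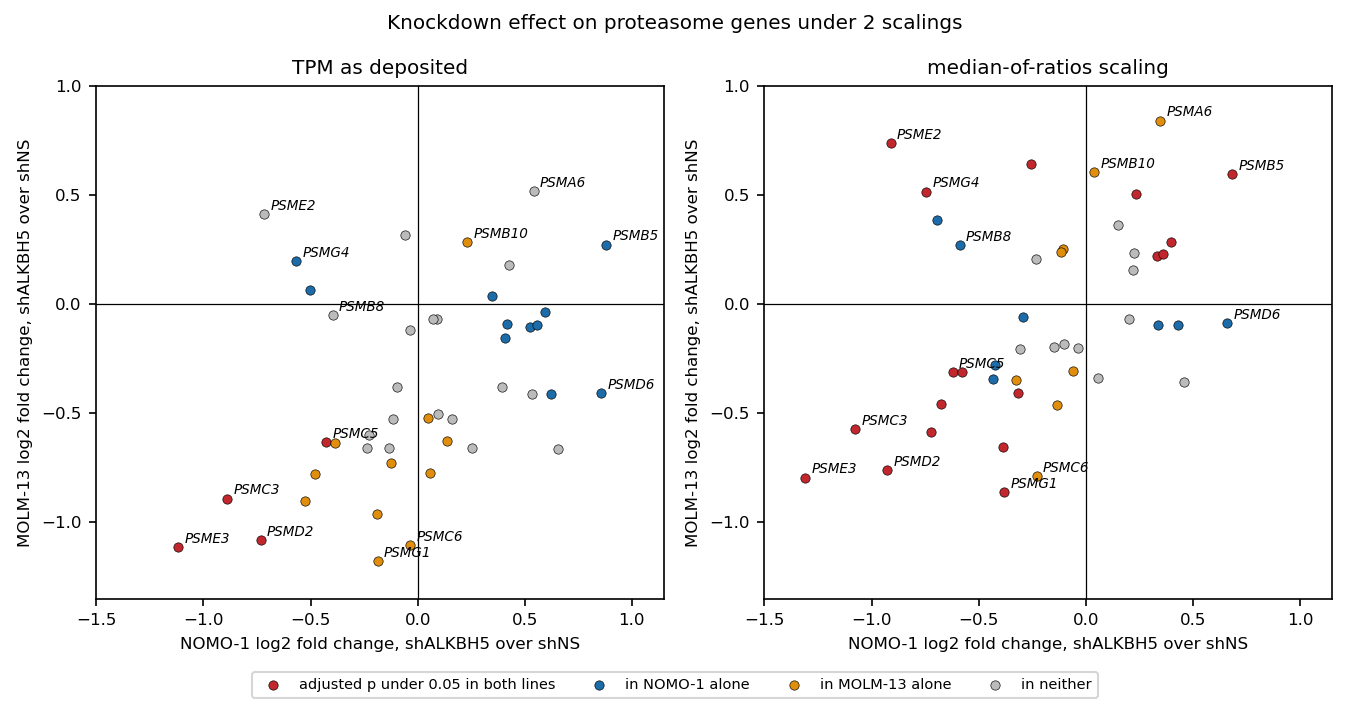
Log2 fold change of shALKBH5 over shNS in NOMO-1 (horizontal) and MOLM-13 (vertical) for 45 proteasome genes, from TPM as deposited (left) and with median-of-ratios scaling (right), coloured by whether the adjusted p was under 0.05. PSME3, PSMC3, PSMD2 and PSMC5 stay in the lower left in both panels, while the whole cloud lies further left and higher with median-of-ratios scaling.

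The control libraries of the lines were compared as well, NOMO-1 against MOLM-13. Of the 45 genes, 24 were higher in NOMO-1 (53.3%) and 2 lower (4.44%), beside 40.6% higher and 19.2% lower over all genes (59.8% in all), with a median log2 difference of 0.52 against 0.29 over all genes. With median-of-ratios scaling 23 were higher and 8 lower (51.1% and 17.8%), beside 34.2% and 31.6% of all genes (65.8% in all). Shared by both scalings were 23 higher and 2 lower calls. The count of calls, 26, was 16 and 17 without NOMO-1 shNS replicate 1 and 3, and 15 without MOLM-13 shNS replicate 1. Higher in NOMO-1 were 8 of 11 non-ATPase subunits of the cap, with 3 of 6 base ATPases and 4 of 7 constitutive beta subunits.

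PSMD11, of the lid, had 98.0 and 97.6 TPM in NOMO-1 shNS cells and 32.8 and 33.3 TPM in MOLM-13 shNS cells, the largest ratio at 2.96 (log2 difference 1.54, SE 0.23, limma adjusted p = 0.0014). PSMD2 was 2.76, PSMA7 2.70, PSMD14 2.65 and PSMD10 2.45 times higher in NOMO-1 by group means, with log2 differences of 1.46, 1.43, 1.40 and 1.27 (adjusted p = 0.00014, 4.0e-05, 0.00085 and 0.00035). These 5 calls held in all 14 alternatives. PSMB10 went the other way, with 36.2 and 38.0 TPM in NOMO-1 shNS cells and 81.2 and 82.5 TPM in MOLM-13 shNS cells, 2.21 times higher in MOLM-13 (-1.12, SE 0.09, limma adjusted p = 9.9e-05, called in all 14 alternatives). PSMC3, with 74.6 and 75.7 TPM in NOMO-1 shNS cells and 117 and 112 TPM in MOLM-13 shNS cells, was also lower in NOMO-1 (-0.60, SE 0.13, adjusted p = 0.0078). That call ended without NOMO-1 shNS replicate 1 or MOLM-13 shNS replicate 1 (0.0505 and 0.0544). PSMB8 was not called (0.51, SE 0.23, adjusted p = 0.099).

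**Figure D4:**
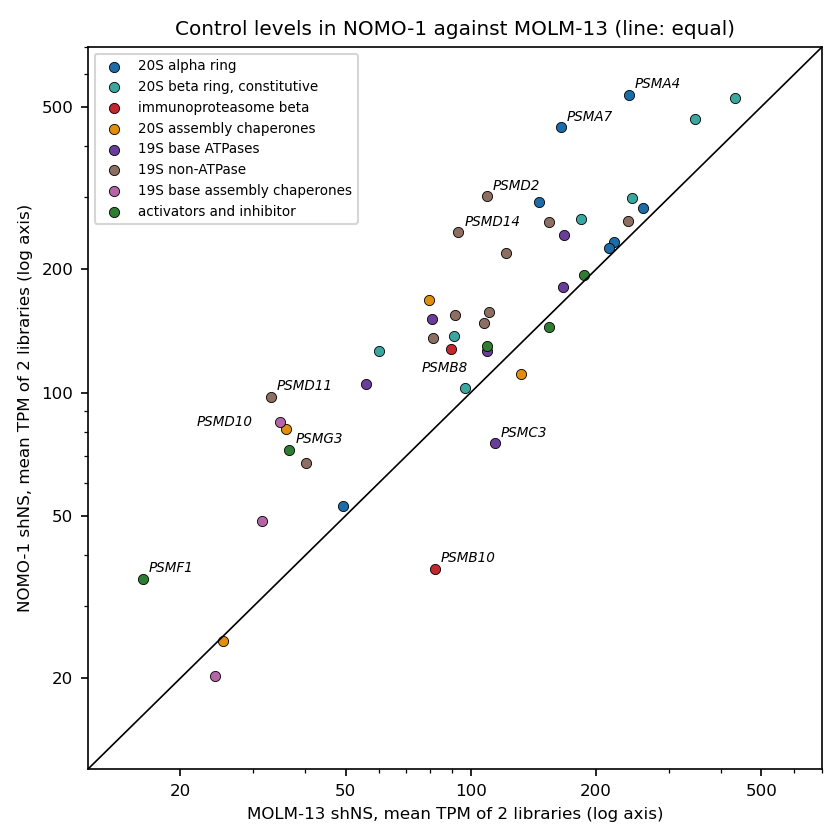
Mean TPM of each tested proteasome gene in NOMO-1 shNS cells (vertical) against MOLM-13 shNS cells (horizontal), both on log axes, coloured by role, with the line of equality. Most genes lie above the line. PSMB10 and PSMC3 lie furthest below it, and PSMD9, PSMG2, PSME1 and PSMG4 also lie below but nearer to it.

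Genes that work with the proteasome were described from lists chosen with earlier results of these data known. Of 11 partners outside the PSM symbols, 2 were higher and 1 lower in NOMO-1 and 0 higher and 6 lower in MOLM-13. With median-of-ratios scaling 2 were higher and 4 lower in NOMO-1, and 1 higher and 6 lower in MOLM-13. The shares over all genes stand beside the counts of this list and of the lists below. From TPM they were 28.6% higher and 15% lower in NOMO-1, and 10.6% and 31.2% in MOLM-13. By median-of-ratios scaling they were 24.6% and 25.1% in NOMO-1, and 25.4% and 25.2% in MOLM-13. In NOMO-1, TXNL1, a thioredoxin-like protein bound to the cap, had 245 and 238 TPM in shALKBH5 cells against 124 and 133 TPM in shNS cells (log2 fold change 0.91, limma adjusted p = 0.022). AKIRIN2, which helps import the proteasome into the nucleus, rose as well (0.68, adjusted p = 0.044), and the ligase UBE3C fell by 0.34 (adjusted p = 0.035). In MOLM-13, USP14, the cap's deubiquitinase, had 27.7 and 18.4 TPM in shALKBH5 cells against 58.2 and 55.3 TPM in shNS cells (-1.29, limma adjusted p = 0.0028). KIAA0368, a scaffold of the proteasome also named ECPAS, fell by 0.90 (adjusted p = 0.0039) and UBE3C by 0.65 (adjusted p = 0.004). The USP14 and KIAA0368 calls held in all 15 alternatives and UBE3C in MOLM-13 in all but the line fitted alone (0.0537). The NOMO-1 calls ended without any NOMO-1 library, at 0.0856 to 0.109 for TXNL1, 0.0803 to 0.177 for AKIRIN2 and 0.0799 to 0.186 for UBE3C, for AKIRIN2 and UBE3C also without either MOLM-13 shNS library.

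Of 5 genes that control transcription of the subunits, 3 were higher in NOMO-1 and 1 lower in MOLM-13. With median-of-ratios scaling the same 3 were higher in MOLM-13 as well. NFE2L1, the transcription factor that raises subunit genes when the proteasome is impaired, had 107 and 109 TPM in NOMO-1 shALKBH5 cells against 69.2 and 69.5 TPM in shNS cells (0.63, limma adjusted p = 0.0077). VCP, the segregase that extracts its precursor, was at 0.55 (adjusted p = 0.0095) and DDI2, the protease that cuts it, at 0.46 (adjusted p = 0.012). In MOLM-13 NFE2L1 was at 0.24 (adjusted p = 0.17), VCP at -0.01 (0.96) and DDI2 at 0.27 (0.071), and by median-of-ratios scaling they were at 0.56 (0.00051), 0.31 (0.0053) and 0.58 (0.0028). NGLY1, the glycanase that edits it, fell by 0.98 in MOLM-13 (adjusted p = 0.00089), a call that held in all 15 alternatives, with 18.7 and 17.1 TPM in shALKBH5 cells against 37.2 and 35.5 TPM in shNS cells. The NOMO-1 calls of NFE2L1 and DDI2 ended without any of the NOMO-1 libraries, and that of VCP without any of them except shALKBH5 replicate 2 (0.0513 to 0.0553, 0.0635 to 0.096 and 0.0618 to 0.0671).

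Among 12 genes of ubiquitin supply and shuttle factors, 3 were higher and 2 lower in NOMO-1, and 0 were higher and 3 lower in MOLM-13. With median-of-ratios scaling 5 were higher and 4 lower in NOMO-1, and 2 higher and 3 lower in MOLM-13. RPS27A, a fusion of ubiquitin with a ribosomal protein, had 852 and 983 TPM in NOMO-1 shALKBH5 cells against 1759 and 1841 TPM in shNS cells (log2 fold change -0.97, limma adjusted p = 0.0057), a call that held in all 15 alternatives. Of the shuttle factors, UBQLN2 was at 0.83 (adjusted p = 0.023) in NOMO-1 and UBQLN4 at -0.44 (adjusted p = 0.029). The UBQLN2 call ended without any of the NOMO-1 libraries (0.0939 to 0.111), and that of UBQLN4 without these or either MOLM-13 shNS library (0.0607 to 0.142). In MOLM-13, the polyubiquitin gene UBB fell by 0.65 (adjusted p = 0.0064), the ubiquitin-activating enzyme UBA6 by 1.21 (adjusted p = 0.023) and the shuttle factor RAD23B by 0.71 (adjusted p = 0.034). All 3 calls ended with MOLM-13 fitted alone. The UBB call also ended without shNS replicate 3 (0.0537), that of UBA6 without either shNS library (0.097 and 0.106) and that of RAD23B without these or any NOMO-1 library (0.066 to 0.136).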

How the data were processed

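The libraries were made from poly(A) RNA with a stranded kit, per the series' design text. STAR and RSEM are the tools named, with GRCh38 as build, per the submitters' processing notes. Versions, annotation and the strand setting of the counting were not given in the sources used here. The authors deposited 1 table of TPM for 26830 gene symbols, and 0 of its columns lacked a sample. Depth is unknown, so no counting interval is given. The 14302 genes that reached 1 TPM in 2 or more libraries were tested with limma 3.58.1 in R 4.3.3 on log2(TPM + 1), a mean for each of 4 groups over all 8 libraries (4 residual and 2.29 prior degrees of freedom), empirical Bayes with trend, two-sided, Benjamini-Hochberg adjusted over all genes tested, threshold 0.05. Fold changes on this scale understate changes of low genes. Spread is shared by all 4 groups, although it was largest in MOLM-13 shALKBH5. The 4 comparisons are the knockdown in each line, its difference between lines and the control libraries. The test was tested on simulated data. There each gene had the same spread in all 4 groups and 200 genes were changed. It therefore does not cover the wider spread of MOLM-13 shALKBH5. The MOLM-13 libraries share replicate numbers 1 and 3, and same-numbered libraries deviated with a correlation of 0.136 over 6435 genes, from 2 pairs, so the numbers were not taken to pair them.

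Members and lists were chosen with earlier results of these data known. Genes given in full are the immunoproteasome genes, their constitutive partners, PSME1 to PSME4 and, in each comparison, the 5 called genes with the largest fold change in each direction, with the 3 smallest p of each companion list where at least 3 passed; other genes named were chosen after their values were seen. Symbols matched 47 of 47 genes in GENCODE release 29, in which 17 overlap a gene of the table on the opposite strand and 12 have a named pseudogene, 0 of which has an entry in the table, so reads may be shared. Promoter windows came from RefSeq (GRCh38.p14) for 41 genes. A few genes of the companion and marker lists are not reported here, and the list counts and sums leave them out.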

Additional observations from a re-analysis of the deposited data

Results flagged for a closer look

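Each of the following 15 proteasome genes had a knockdown effect that differed between the lines by limma's test of the difference itself (NOMO-1 minus MOLM-13, log2 scale, adjusted p under 0.05), and values are given with no explanation. The difference was 1.32 for PSMD12, 1.26 for PSMD6, 1.07 for PSMC6, 1.04 for PSMA5, 0.989 for PSMG1, 0.832 for PSMD10, 0.77 for PSME4, 0.63 for PSMD8, 0.606 for PSMB5, 0.605 for PSMB7, 0.565 for PSMD9 and 0.51 for PSMA7. It was -1.13 for PSME2, -0.766 for PSMG4 and -0.571 for PSMG3. With median-of-ratios scaling 9 of the 15 calls held in the same direction, 6 higher and 3 lower, while PSMA7 came to -0.01 and PSMB5, PSMB7, PSMD8, PSMD9 and PSME4 did not pass (adjusted p 0.65, 0.484, 0.421, 0.681 and 0.0689). No call held without either MOLM-13 shNS library or without NOMO-1 shNS replicate 1 or 3, and leaving out a MOLM-13 shALKBH5 library raised the count to 41 or 30.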

How the results depend on the processing

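Limits are 2 libraries per group, TPM in place of counts, a share-based scale, and a spread between the MOLM-13 shALKBH5 libraries that was wider than in the other groups. Calls in NOMO-1 rest on a spread pooled with theirs. A fit without 1 library has 1 library left in that group, which then adds nothing to the estimate of spread. The p-values and counts of such a fit do not measure the spread of that group. Without either MOLM-13 shALKBH5 library, the wide spread of that group drops out of all comparisons. Counts of proteasome genes past the threshold moved by over 1.5 times as follows. Genes lower in NOMO-1 (6) numbered 18 with median-of-ratios scaling, 17 with quantile scaling and 16 with each line fitted alone, and genes higher in NOMO-1 (9) numbered 14 with quantile scaling and 17 fitted alone. Genes higher in MOLM-13 (1) numbered 12 with median-of-ratios scaling, 10 with quantile scaling and 0 fitted alone, and genes lower (14) numbered 7 fitted alone. Leaving out 1 library gave 1 to 18 higher and 3 to 16 lower in NOMO-1, 0 to 11 higher and 6 to 35 lower in MOLM-13, 0 to 41 for the line difference and 15 to 37 for the controls. A pseudocount of 0.1, no filter or a 5 TPM filter moved no count by that much.

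With the replicate block in MOLM-13, 10 genes were higher and 8 lower in NOMO-1, 1 higher and 21 lower in MOLM-13, 19 called for the line difference and 29 for the controls. NOMO-1 groups share only replicate number 3, so no block could be fitted there.

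Where either value passed the threshold, signs changed in 34 cases, and the cause was not tested. In MOLM-13 with median-of-ratios scaling PSMB6 was 0.25, PSMC4 0.28, PSMD13 0.23, PSMD8 0.22 and PSMF1 0.24, and with quantile scaling PSMB6 was 0.22, PSMC4 0.27 and PSMF1 0.30. Without shALKBH5 replicate 3, PSMB3, PSMB6, PSMB8, PSMC4 and PSMD13 were 0.20, 0.15, 0.33, 0.19 and 0.20, and leaving out 1 library in turn reached as low as -0.43 for PSMB3, -0.43 for PSMB8 and -0.38 for PSMD13, each without replicate 1. For the line difference median-of-ratios scaling gave PSMA7 -0.0096, PSMB3 -0.44, PSMB6 -0.36, PSMC3 -0.51, PSMC5 -0.31, PSMD4 -0.27, PSMD7 -0.24 and PSMF1 -0.35, quantile scaling gave PSMC3 -0.44 and PSMF1 -0.35, and PSMA6 and PSMB3 were -0.41 and -0.23 without shALKBH5 replicate 3, 0.46 and 0.40 without replicate 1, and PSME3 0.29 without replicate 1. In the controls median-of-ratios scaling gave PSMA5 -0.20, PSMB4 -0.027, PSMC5 -0.18 and PSMD4 -0.17, and quantile scaling gave PSMA5 -0.26, PSMB5 -0.28, PSMC5 -0.21 and PSMD4 -0.24.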
